A study of Mus musculus with 6 samples.

Results

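Cadherins are calcium-dependent adhesion proteins of the cell surface, and 9 of their genes are described here in mpkCCD cells, mouse kidney cells derived from the cortical collecting duct. They are 7 cadherins (Cdh1, Cdh2, Cdh3, Cdh6, Cdh11, Cdh13 and Cdh16) and 2 protocadherins (Pcdh1 and Pcdh19), out of 18193 genes on the array with a probe set annotated to a single gene. They were picked by name, with the levels of Cdh2 and Pcdh19 in these same lines and the steadiness of the epithelial cadherins already known. Their own values in the lines and their relation to Aqp2 are therefore given as a description, without a test. Each gene was read from its probe set of highest mean signal, and other probe sets served as a check, 18 in all. A filter on low signal, a mean above 85.46 (the median of all probe sets), was passed by 7 of the 9 genes and not by Cdh6 and Cdh11.

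The study measured 6 lines on 1 Affymetrix array each: the original mpkCCD cells and clones 2, 3, 9, 10 and 11, described in the design as cloned from them into colonies. The title of the sample of original cells calls them a clone as well, while its description and the design do not, and the latter were followed. All 6 were kept with dDAVP, an analog of the hormone vasopressin, at 0.1 nM for 5 days, so no line without the hormone is part of the comparison. The labels say that clone 2 did not express aquaporin 2 (AQP2), the vasopressin-regulated water channel of collecting duct principal cells, and that the 5 other lines, called AQP2-expressing below, did. With 1 array per line, and each clone a single colony, differences between lines, cultures and arrays cannot be told apart, and no 2 lines that stand next to each other in an order could be tested against each other. The group without AQP2 is 1 line, so that label cannot be separated from any other trait of clone 2.

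Classical cadherins hold neighbouring epithelial cells together at the adherens junction, where their cytoplasmic tails bind catenins that link to actin. E-cadherin (Cdh1) is the general epithelial member, P-cadherin (Cdh3) is known from basal and some simple epithelia, and N-cadherin (Cdh2) from neural and mesenchymal cells and from the proximal tubule. Kidney-specific cadherin (Cdh16) has a short tail and marks tubule epithelium, T-cadherin (Cdh13) has a lipid anchor and no tail, and protocadherins such as Pcdh19 signal through other partners, among them the actin-regulating WAVE complex.

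Cdh2 was close to the bottom of the array in clone 2 and spread widely over the AQP2-expressing lines. By MAS5 signal, a linear intensity in arbitrary units, clone 2 read 3.62, clone 10 read 81.4 and the original cells read 302.0, followed by clone 3 at 427.8, clone 11 at 592.5 and clone 9 at 1622.9. Clone 2 lay below all 5 AQP2-expressing lines, and among those 5 the highest signal was 19.9 times the lowest. On its own array the clone 2 signal stood at the 9.08th percentile of all probe sets, while the other lines reached the 48.8th to the 89.3rd percentile. The AQP2-expressing lines averaged 605 ± 599 (SD, n = 5), and without clone 9 the mean was 351 ± 216 (SD, n = 4) and the spread 7.28-fold.

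On the scale of log2(signal + 18.81), where the added offset keeps noise near 0 from dominating, clone 2 stood 4.26 below the mean of the AQP2-expressing lines (difference -4.26, SD of those lines 1.47). Because the clone 2 signal was so low, this size depends on the offset, and no fold is given. By the second probe set of Cdh2, clone 2 read 2.00, clone 10 read 41.5 and the original cells read 124.0, followed by clone 3 at 237.5, clone 11 at 355.9 and clone 9 at 747.4. Both probe sets therefore put the 6 lines in one order, with a log2 difference of -3.46 by the second. The log2 range of Cdh2 over the AQP2-expressing lines, 4.03, was reached by 33 of the 10342 genes past the filter, Cdh2 included, and the median range of those genes was 0.46.

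**Figure D1:**
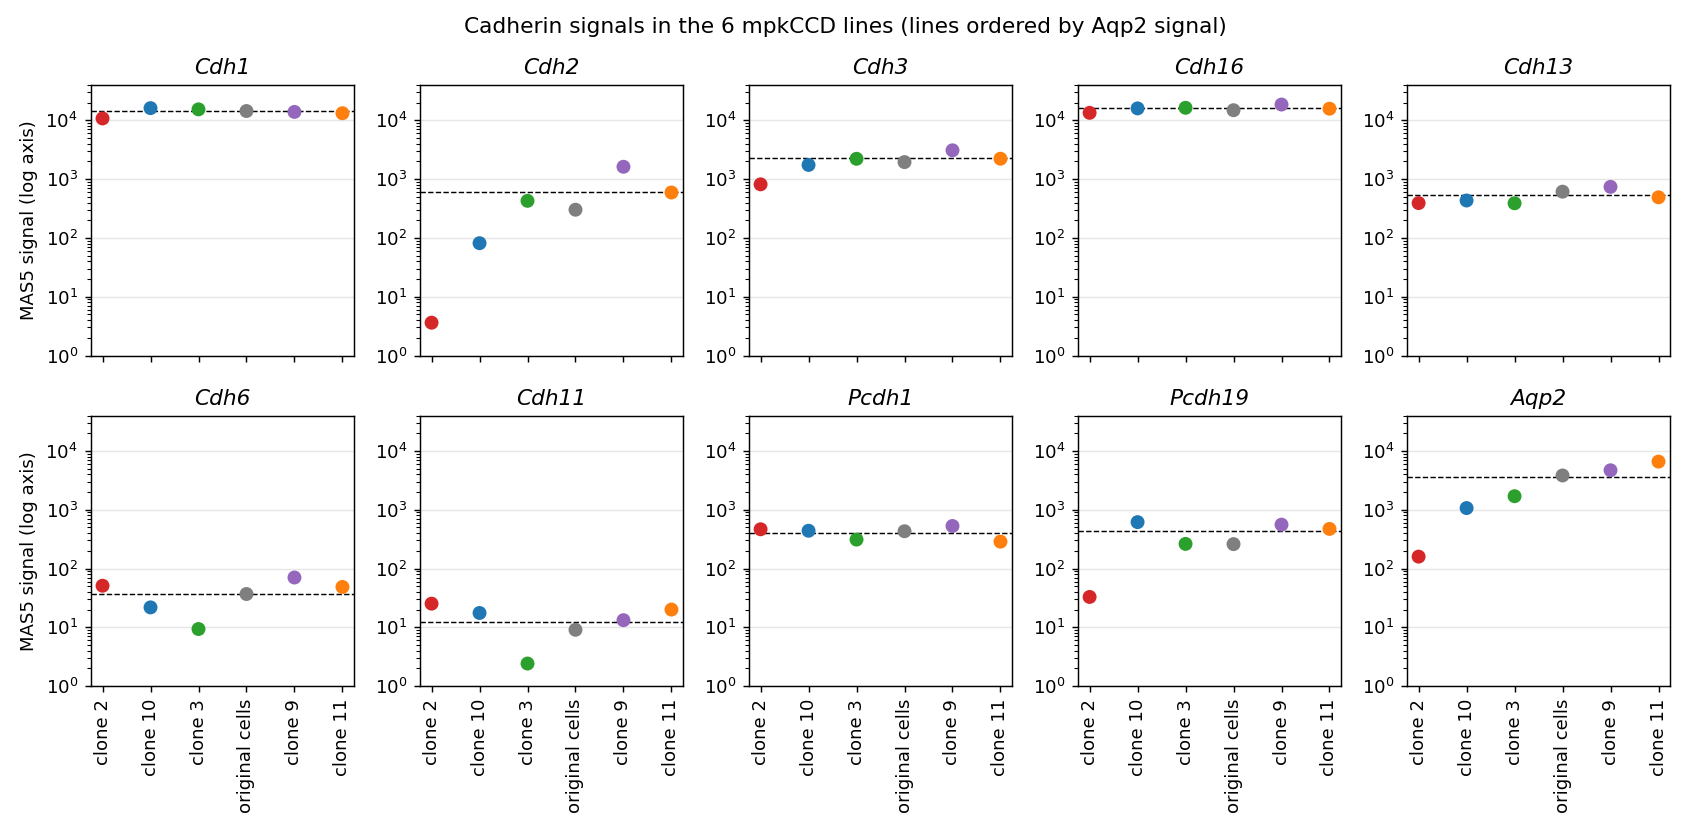
Each panel plots the MAS5 signal (log axis) of 1 gene in the 6 lines, 1 point per array, with the lines ordered from low to high Aqp2 and a dashed line at the mean of the 5 AQP2-expressing lines. Cdh1 and Cdh16 are nearly level on this axis. Cdh2 is lowest in clone 2 (3.62), highest in clone 9 (1622.9) and lower again in clone 11 (592.5), the line with the highest Aqp2. Pcdh19 is low in clone 2 only.

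Cdh3, the P-cadherin gene, was not level across the lines. Clone 2 had a signal of 815.5, clone 10 of 1743.3, the original cells of 1948.8, clone 3 of 2216.9, clone 11 of 2226.7 and clone 9 of 3091.7. Clone 2 was again below every AQP2-expressing line, at 36.3% of their mean of 2245 ± 514 (SD, n = 5), a log2 difference of -1.41 (SD of those lines 0.31). The second probe set gave 13.4 in clone 2 against 107 ± 18.0 (SD, n = 5; log2 difference -1.95). By the stronger probe set the order of the 6 lines was that of Cdh2, an order found in 47 of the 10341 other genes past the filter (0.455%), and clones 3 and 11 had almost equal signals. The second probe set put clone 3 highest and clone 11 lowest of the AQP2-expressing lines, so the order within those lines differed between probe sets.

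Pcdh19, a protocadherin known from the nervous system, was low in clone 2 and varied less than Cdh2 among the other lines. Clone 2 had a signal of 32.8, the original cells of 259.9, clone 3 of 262.2, clone 11 of 471.6, clone 9 of 557.1 and clone 10 of 615.0. The AQP2-expressing lines averaged 433 ± 165 (SD, n = 5), and clone 2 did not overlap with them. The AQP2-expressing lines spanned 2.37-fold, a log2 range of 1.19 that 6.42% of the genes past the filter reached. The clone 2 signal, at the 35.4th percentile within its array, was not shown to be above background, so no fold against it is given. The log2 difference of clone 2 was -3.04 (SD 0.57). A further probe set gave nearly the same picture, with 28.8 in clone 2 against 392 ± 128 (SD, n = 5; -3.05). The weakest of its 3 probe sets gave 44.7 against 118 ± 44.4 (SD, n = 5; -1.05), still below all 5.

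Pcdh19 and Aqp2 were both lowest in clone 2, and the 250 bases before the annotated start of each gene are shown to let the windows be compared. They come from RefSeq sequence of mouse build GRCm38.p6, whose table held 3 of the genes named so far, Pcdh19, Aqp2 and Cdh6. Capitals mark matches, on either strand, to CANNTG (the E-box, bound by basic helix-loop-helix and Snail factors), TGACG (a core of the cAMP response element), ATTGG (the CCAAT box read on the other strand), TATAA and GGGCGG (a GC box). The Pcdh19 window is chrX:133688994-133689243 on the minus strand, and the Aqp2 window is chr15:99578806-99579055 on the plus strand.
Pcdh19: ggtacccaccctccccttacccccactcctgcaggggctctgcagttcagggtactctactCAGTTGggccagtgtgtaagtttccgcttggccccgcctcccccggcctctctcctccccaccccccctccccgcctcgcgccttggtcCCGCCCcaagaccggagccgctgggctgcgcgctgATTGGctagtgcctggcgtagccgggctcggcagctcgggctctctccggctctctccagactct
Aqp2: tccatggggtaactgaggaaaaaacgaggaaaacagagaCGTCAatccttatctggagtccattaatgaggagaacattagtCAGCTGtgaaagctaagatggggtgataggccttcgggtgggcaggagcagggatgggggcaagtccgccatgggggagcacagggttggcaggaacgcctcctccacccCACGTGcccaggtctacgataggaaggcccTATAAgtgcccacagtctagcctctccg
The Pcdh19 window was 69.2% G and C and held 1 E-box, 1 ATTGG and 1 GC box. The Aqp2 window was 55.6% G and C and held 2 E-boxes, 1 TGACG and 1 TATAA. The E-box was the only motif found in both, and it occurred in 66.2% of 32851 promoter windows of the same length, against 17.8% for TGACG, 33.8% for ATTGG, 22.8% for TATAA and 32.7% for GGGCGG. None of the 5 motifs overlapped another in these windows, and a match is a run of letters, not a site shown to be bound.

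**Figure D2:**
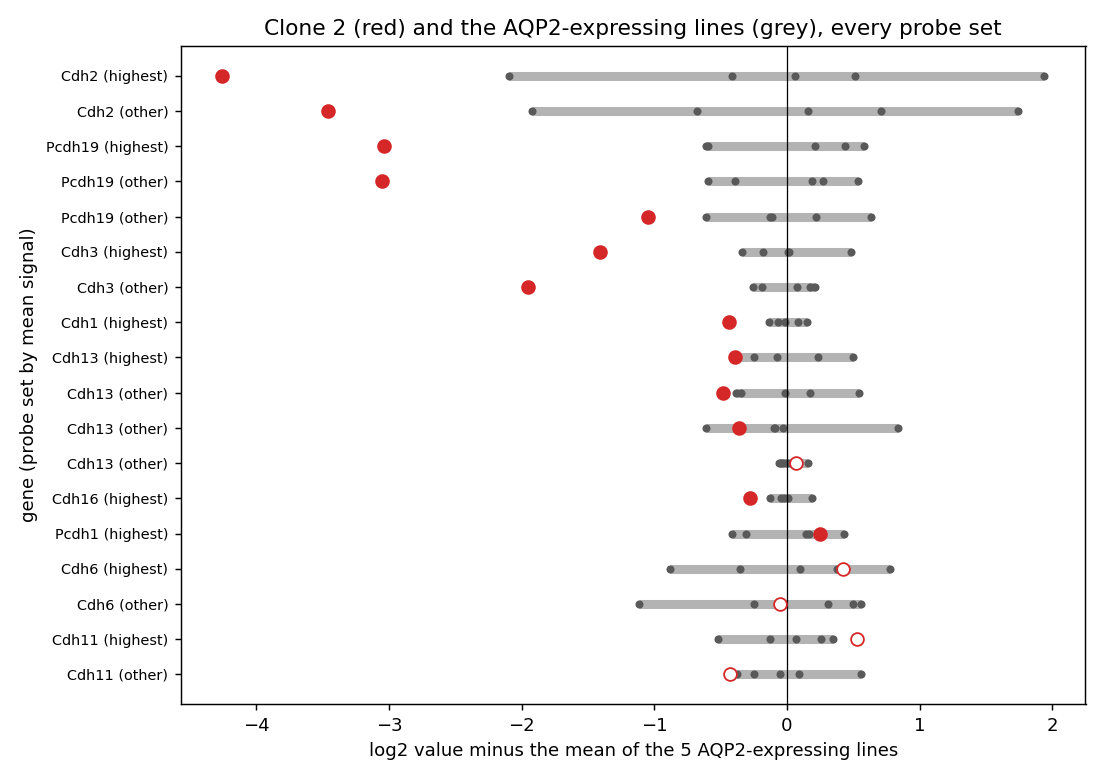
For each of the 18 probe sets of the 9 genes, the red point gives clone 2 and the grey points and bar the 5 AQP2-expressing lines and their range, as log2 value minus the mean of those 5 lines; open red circles mark probe sets with a mean signal below the filter. Clone 2 lies left of the bar for both Cdh2, both Cdh3 and all 3 Pcdh19 probe sets, whereas Pcdh1 and Cdh6 lie within it.

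The epithelial cadherins Cdh1 and Cdh16 varied little among the AQP2-expressing lines. For Cdh1, clone 2 read 10764.8, clone 11 read 13225.9, clone 9 read 13900.8, the original cells read 14399.9, clone 3 read 15372.6 and clone 10 read 16123.8. Clone 2 was lowest, at 73.7% of the mean of 14605 ± 1155 (SD, n = 5), and the AQP2-expressing lines lay within 1.22-fold of each other. For Cdh16, clone 2 read 13415.2, the original cells read 14867.8, clone 11 read 15771.9, clone 10 read 15966.1, clone 3 read 16339.3 and clone 9 read 18556.5. Clone 2 was lowest here too, at 82.3% of 16300 ± 1372 (SD, n = 5), with a spread of 1.25-fold among the others. The log2 differences of clone 2 were -0.44 for Cdh1 (SD of the AQP2-expressing lines 0.11) and -0.28 for Cdh16 (SD 0.12). The log2 ranges over the AQP2-expressing lines, 0.29 and 0.32, were below the median of 0.46 over all genes past the filter. Their steadiness was known when the genes were chosen, so this comparison only describes them.

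Cdh13 and Pcdh1 were measured at moderate signal, and clone 2 fell within the other lines for both. For Cdh13, clone 3 read 388.8, clone 2 read 391.4, clone 10 read 433.4, clone 11 read 490.9, the original cells read 611.8 and clone 9 read 739.4. Clones 2 and 3 thus had almost the same signal, and the 2 other Cdh13 probe sets past the filter were also highest in clone 9. One of these placed clone 2 just below the other lines (342.7 against 367.2 to 718.3), the other within them (89.5 against 72.3 to 230.2). For Pcdh1, a protocadherin of epithelia, clone 11 read 286.1, clone 3 read 310.4, the original cells read 430.4, clone 10 read 438.7, clone 2 read 464.9 and clone 9 read 528.6. The log2 difference of clone 2 was -0.39 for Cdh13 (SD 0.36) and 0.25 for Pcdh1 (SD 0.35).

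Cdh6, a cadherin of the developing nephron and the proximal tubule, and Cdh11, a mesenchymal cadherin, had low signal in every line. Cdh6 ranged from 9.35 in clone 3 to 70.3 in clone 9, with 51.0 in clone 2. Cdh11 ranged from 2.42 in clone 3 to 25.3 in clone 2, and its 2 probe sets disagreed, the second being lowest in clone 2 at 0.42 and highest in clone 10 at 19.5. No detection calls were used, so whether these transcripts were present was not shown, and nothing is read from their order.

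In all, clone 2 lay below every AQP2-expressing line for 5 of the 9 genes (Cdh1, Cdh2, Cdh3, Cdh16 and Pcdh19), above them for Cdh11 and within them for 3. For comparison, clone 2 lay below all 5 lines in 23.5% of all genes on the array and in 26.9% of those past the filter, and above them in 29.0% of the latter. As the genes were chosen on this contrast, the count describes them and supports nothing further. The log2 differences of Cdh2 and Pcdh19 were the lowest of the 9, and both rest on clone 2 signals that were not shown to be above background. The median absolute difference over the 10342 genes past the filter was 0.26.

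The study sought transcripts that follow Aqp2 among the lines, and the cadherins did so to different degrees. For Aqp2, clone 2 read 159.3, clone 10 read 1066.4, clone 3 read 1697.9, the original cells read 3822.4, clone 9 read 4683.4 and clone 11 read 6577.7. Over the 6 lines, as a description of points that each rest on 1 array, Pearson's r of the log2 values with Aqp2 was 0.92 for Cdh2 (Spearman's rho 0.89), 0.90 for Cdh3 (0.89), 0.79 for Pcdh19 (0.31), 0.67 for Cdh16 (0.37) and 0.67 for Cdh13 (0.66). It was 0.50 for Cdh1 (rho -0.14), 0.13 for Cdh6 (0.26), -0.31 for Pcdh1 (-0.37) and -0.37 for Cdh11 (-0.20). Clone 2 and clone 11 are the lines farthest from the median of Aqp2, and over the 4 lines left without them r was 0.80 for Cdh2, 0.69 for Cdh3, 0.90 for Cdh13, 0.79 for Cdh6, 0.51 for Pcdh1, 0.31 for Cdh16 and -0.05 for Cdh11. Pcdh1 thus changed sign. For Pcdh19 r was -0.19 and for Cdh1 -0.99, so the positive values of these genes over 6 lines were not kept without clones 2 and 11. Clone 2 was lowest in both genes and in Aqp2. Clone 11 had the highest Aqp2 but the lowest Cdh1 of the AQP2-expressing lines (13225.9) and a middle value of Pcdh19 (471.6).

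Within the AQP2-expressing lines the patterns parted. By the probe sets of highest signal, clone 10, with the lowest Aqp2 of the 5, had the lowest Cdh2 and Cdh3 but the highest Pcdh19 and Cdh1. The second probe set of Cdh3 was instead lowest in clone 11 and highest in clone 3. The weakest of Pcdh19 was highest in clone 9, at 185.4 against 134.5 in clone 10. The order of the 5 lines in Cdh1 was exactly the reverse of that in Aqp2, over a spread of 1.22-fold. Clone 9 had the highest Cdh2, Cdh3, Cdh13, Cdh16 and Pcdh1, while its Aqp2 was second to that of clone 11.

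**Figure D3:**
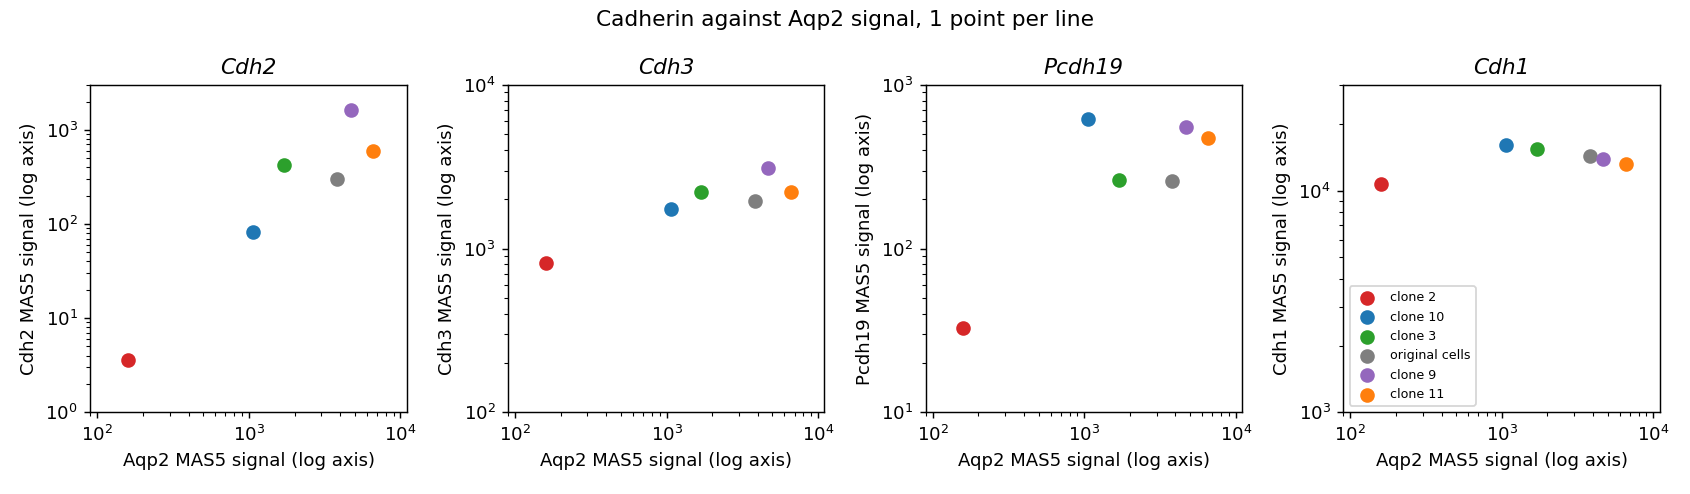
Each panel plots the signal of 1 cadherin against that of Aqp2, both on log axes of MAS5 signal, with 1 coloured point per line; the vertical axes differ between panels. Clone 2 is at the lower left in all 4 panels, clone 10 (Aqp2 1066.4) is low for Cdh2 and high for Pcdh19, and Cdh1 declines from clone 10 to clone 11.

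The genes whose profile over the 6 lines was most like that of Cdh2 or Pcdh19 were sought among 1740 genes past the filter with a log2 range of at least 1. For Cdh2 these were Ankrd52 (r = 0.996), Ankrd12 (0.994), Cep295, a centriole protein (0.983), Klk8, a secreted serine protease (0.979), and Gata2, a transcription factor (0.977). For Gata2, clone 2 read 98.3, clone 10 read 209.7, clones 3 and 11 read 412.1 each, the original cells read 485.9 and clone 9 read 832.9. Cdh3 came at rank 10 (r = 0.968), Aqp2 at rank 54 (0.916) and Pcdh19 at rank 305 (0.736). For Pcdh19 the most alike were Garem1, an adaptor of growth factor signalling (0.992), Tspyl4 (0.990), Myb, a transcription factor (0.988), Abhd14b (0.981) and Sh2d3c, an adaptor protein (0.981). For Myb, clone 2 read 147.8, clone 3 read 415.5, the original cells read 427.4, clone 11 read 533.9, clone 10 read 539.5 and clone 9 read 546.2. High values were common with so few lines: r exceeded 0.9 for 74 genes with Cdh2 and for 117 with Pcdh19. Nor does r reflect size. The log2 difference of clone 2 was -0.69 for Ankrd52 beside -4.26 for Cdh2, and -0.91 for Garem1 beside -3.04 for Pcdh19. Ankrd52 ran only from 59.6 in clone 2 to 145.6 in clone 9.

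The original cells were also compared with the 4 AQP2-expressing clones. Levels in these lines were known when the 9 genes were chosen, so their differences are described without a test. Of all genes past the filter limma called 0.00967%, and of all probe sets 0.00444%. Among the 7 cadherins and protocadherins past the filter, the difference farthest from 0 was that of Pcdh19, -0.76 on the log2 scale (SE 0.424). The original cells had 259.9 and the clones 262.2 to 615.0. For Cdh2 the difference was -0.52 (SE 1.19), and it was 0.09 without clone 9. The spread in this comparison comes from the 4 clones, since the original cells are 1 array, and a small difference does not show that the values were alike.

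Beyond the 9 genes, 102 further genes of the cadherin system were listed in 5 groups, and 96 had a probe set annotated to them alone. Of the 47 past the filter, 2 fell in clone 2 and none rose, 4.26% against 3.14% of all genes, of which 1.86% were lower and 1.29% higher (limma with Benjamini-Hochberg adjustment over 22518 probe sets). Over all probe sets, 184 were higher and 376 (1.67%) lower in clone 2, 560 (2.49%) in all, and with median centring, which shifts the median difference of all genes from 0.01 to 0.11, the split was 254 against 232.

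The catenins, which tie cadherin tails to actin, and other adherens junction genes showed no call by limma among 16 genes past the filter. Their median log2 difference was -0.19 beside 0.01 for all genes. Not all were level: the lowest differences were those of Nectin3, -2.76, and Afdn, -0.78, and the highest was that of Ctnnbip1, 0.57. Nectin3 read 10.2 in clone 2, within the AQP2-expressing lines, which ran from 3.86 in clone 9 to 1325.9 in clone 11. Its log2 range over those lines was 5.89. Afdn read 3405.9 in clone 2, below all 5 AQP2-expressing lines at 5906 ± 946 (SD, n = 5). With 1 array of clone 2, a missing call in this or a later list does not show that the levels were alike. Clone 2 read 14758.8 for beta-catenin, Ctnnb1, and the other lines 16431 ± 1088 (SD, n = 5; log2 difference -0.15, limma adjusted p = 0.488). Alpha-catenin, Ctnna1, had 14403.5 against 15944 ± 1477 (SD, n = 5; -0.14, limma adjusted p = 0.591). Among 11 genes of cadherin maturation and cleavage limma called none (median log2 difference -0.08). The sheddase Adam10 had 3511 against 3716 ± 278 (SD, n = 5; limma adjusted p = 0.797). Psenen, a subunit of gamma-secretase, had 4989.8 against 3550 ± 293 (SD, n = 5; log2 difference 0.49, limma adjusted p = 0.108).

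The list of regulators of cadherin transcription also holds 2 splicing factors, Esrp1 and Esrp2. Limma called none of its 8 genes past the filter (median log2 difference -0.06). The difference farthest from 0 was that of Tcf3, -0.45, with 1273.0 in clone 2 against 1743 ± 68.1 (SD, n = 5). Esrp1, an epithelial splicing factor, had 3203.3 in clone 2 against 3193 ± 172 (SD, n = 5; limma adjusted p = 0.986), and Esrp2 had 2257.8 against 2462 ± 387 (SD, n = 5; limma adjusted p = 0.803). The repressors of E-cadherin Snai1, Snai2, Zeb1, Zeb2, Twist1 and Twist2 did not pass the filter. Of the WAVE complex, to which Pcdh19 is known to bind, 1 of 7 genes fell. This was Abi2, an adaptor subunit, at 905.0 against 1645 ± 144 (SD, n = 5). Its log2 difference was -0.84 with SE 0.163 (limma adjusted p = 0.0375), and the median of the group was -0.38.

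Of 40 other cadherins and protocadherins on the array, 5 passed the filter and 1 of these fell, the giant cadherin Fat1, at 4212.8 against 6728 ± 582 (SD, n = 5). Its log2 difference was -0.67 with SE 0.139 (limma adjusted p = 0.0454). The median difference of these 5 was -0.09. Pcdh17, of the same protocadherin subfamily as Pcdh19 and singled out here after its value was seen, was highest in clone 2. Clone 9 read 14.8, clone 11 read 33.3, clone 3 read 34.9, the original cells read 43.9, clone 10 read 130.7 and clone 2 read 364.4 (log2 difference 2.64). It passed the filter only through clone 2, so no test of it is given. The calls of Abi2 and Fat1 were lost with median centring (adjusted p = 0.0575 for Abi2 and 0.0797 for Fat1), with no filter (0.0569 and 0.097) and when the variance was fitted with no trend (0.0772 and 0.119). Leaving out clone 3 (0.0574 and 0.0764), clone 10 (0.052 and 0.0571) or clone 11 (0.0701 and 0.0727) lost them too, as did leaving out the original cells (0.0821 for each).

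Marker genes were read beside these values, since Cdh2, Cdh6 and Cdh11 are known from other cell types. All 8 general epithelial markers passed the filter and limma called none. Krt18 was at 25158 in clone 2 against 29323 ± 2490 (SD, n = 5) and Krt8 at 19227 against 21936 ± 1780. Of 11 principal cell markers 10 passed and 4 fell (Aqp2, Npnt, Fxyd4 and Gata3), where 1.86% of all genes fell. Aqp2 defines the groups, so its own fall is no result. Without it 3 of 9 fell, and the summed signal was 11922 in clone 2 against 25065 to 26965. Npnt, a matrix protein, had 3832.7 against 10740 ± 764 and Hsd11b2, which was not called, had 2579.9 against 4648 ± 1496. The rest of this list was mixed. Scnn1a and Scnn1g were below all AQP2-expressing lines in clone 2 without a call, and Avpr2 and Scnn1b were within them. Aqp3 was above them, at 191.9 against 96.4 to 150.0, also without a call. Of 12 fibroblast and mesenchymal markers 3 passed and 1 fell, Fn1, with 3137.9 against 8062 ± 1143, while S100a4 had 925 against 1027 ± 233. The mesenchymal filament gene Vim was at 4.52 in clone 2 and 2.34 to 36.8 in the others. Col1a1, Col1a2 and Col3a1 did not pass either. The sum of the fibroblast and mesenchymal list was 4435 against 8127 to 10578, a gap made up by Fn1. Of 8 proximal tubule markers only Lrp2 passed, and it fell, with 115.6 against 942 ± 121, while Slc5a2 had 67.8 against 57.1 ± 27.8. The sum of this list was 297 against 975 to 1279, a gap made up by Lrp2. Of 7 intercalated cell markers 2 passed without a limma call (list sum 3768 against 3012 to 5459). Car2 had 2692 against 3679 ± 1019.6 and Atp6v1b1 had 949 against 585 ± 107. None of 5 endothelial markers passed, Cdh5 and Kdr among them (list sum 145 against 74 to 169). The part of the principal cell, Fn1 and Lrp2 differences in the cadherin values was not tested.

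Position on the genome was a property not used in the choice. Pcdh19 is X-linked, and the median of the 296 other X-linked genes past the filter was 0.47 above the AQP2-expressing lines in clone 2, the opposite direction to Pcdh19. Of its measured neighbours, Diaph2, a formin, had 1232.3 in clone 2 against 691.2 to 912.8, and Tspan6, a tetraspanin, had 64.4 against 51.5 to 192.2, (log2 difference -0.42), while Cldn34c1, Cldn34c4, Tnmd and Srpx2 did not pass the filter. Cdh2 lies on chromosome 18, where the median difference of 252 other genes was 0.00. Among its nearest measured genes only Dsc2, a desmosomal cadherin, passed the filter, with 916.8 in clone 2 against 777.3 to 1492.3, and Gm2629, Aqp4, Chst9, Dsc3 and Dsc1 did not. Cdh1, Cdh3, Cdh11, Cdh13 and Cdh16 are all on chromosome 8, whose other genes had a median difference of -0.01, and Cdh3, at -1.41, was lower than all but 1.22% of them.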

How the data were processed

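The deposited table holds, per line, linear MAS5 intensities; the submitters' processing notes name Affymetrix Expression Console 1.1.  The trimmed means of the arrays nearly coincide (497.7 to 497.9), as after scaling to 1 target; that step is not given in the sources used here. The 64 control probe sets were left out of 45101. Symbols came from the platform annotation, updated through gene identifiers to a table of GRCm38.p6 (34741 of 34945 single-gene probe sets matched).

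Values entered as log2(signal + 18.81). The offset, the 25th percentile over the whole table, shrinks differences between low signals. The filter left 22518 probe sets and 10342 genes. Both comparisons used limma 3.58.1 in R 4.3.3 (lmFit, eBayes with a mean-variance trend), two-sided, p-values adjusted by Benjamini-Hochberg across probe sets, threshold 0.05; clone 2 had its own coefficient in the fit of the original cells. Medians across arrays ran from 79.6 to 88.6. The 9 genes and all lists were chosen with earlier results of these data known. Named genes were the 9, Aqp2 and up to 4 called genes per list (otherwise the 2 of highest signal, as for markers). The 5 most alike to Cdh2 and Pcdh19 and the 3 nearest measured genes on each side of both were also named. Pcdh17, Tcf3, Nectin3, Afdn, Ctnnbip1 and further markers were named after their values were seen. Alternatives were other offsets, scalings, filters, variance models and probe sets, and leaving out each line. The script was tested on simulated data. A planned comparison of protein sequences was not run.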

Additional observations from a re-analysis of the deposited data

How the results depend on the processing

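The differences of clone 2 for Cdh2 and Pcdh19 stayed negative under all alternatives tried, but this is no check of their direction. These genes were chosen with their levels known, and clone 2 lay below every AQP2-expressing line by each of their probe sets. Another offset, another probe set or leaving out an AQP2-expressing line could therefore change only the size, not the sign. The difference of Cdh2 was -6.79 with no offset and -3.46 by the second probe set. That of Pcdh19 was -3.63 with no offset and -1.05 by the weakest probe set. The count of called probe sets was 210 with no filter, 219 with no trend in the variance and between 154 and 943 when 1 line was left out (154 without the original cells, 249 without clone 11, 320 without clone 3, 344 without clone 10 and 943 without clone 9). For the original cells the count of 1 became 2 with the offset doubled or a robust fit and 0 with the filter at the 75th percentile. The 2 calls of the cadherin system became 0 with median centring, no filter or no trend, and between 0 and 4 when 1 line was left out. Near 0, some signs turned: the original cells' difference of Cdh1 was 0.003 without clone 3 and 0.026 without clone 10, and that of Cdh2 was 0.09 without clone 9. For clone 2, Adam10 was at 0.014 with median centring, Esrp1 at -0.036 with quantile normalization, -0.022 without clone 9 and -0.004 without clone 10, and Krt18 at 0.026 with quantile normalization; the cause was not tested. No paired analysis was possible because each line was measured once. Signal over background could not be judged without detection calls, which limits Cdh6, Cdh11, the clone 2 values of Cdh2 and Pcdh19 and the clone 10 value of Cdh2.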
